A study of Mus musculus with 12 samples.

Results

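The 10 genes described here encode enzymes that handle ethanol, acetaldehyde and acetate: the alcohol dehydrogenases Adh1 and Adh5, the aldehyde dehydrogenases Aldh2, Aldh1a1, Aldh1b1, Aldh3a2 and Aldh9a1, and the acetyl-CoA synthetases Acss1, Acss2 and Acss3. They were taken by gene name from the 17408 genes of the deposited normalized table. All 10 were found, each as 1 gene, and all 10 passed the filter on low counts that left 18161 genes of the count table for testing. The RNA came from femoral shafts of male mice aged 12 weeks, sequenced in bulk after the marrow had been spun out. Each library held RNA pooled from 2 mice. The 4 groups of 3 libraries were catalase knockout (KO, Cat -/-) mice given ethanol, KO mice given phosphate-buffered saline (PBS), wild-type (WT, Cat +/+) mice given ethanol and WT mice given PBS. Ethanol was gavaged on 4 days in a row at 3, 3, 4 and 4.5 g per kg from a 31.5% (v/v) solution, PBS was given in equal volume, and tissue was taken 6 h after the last gavage. The labels number the libraries 4 to 6 (KO ethanol), 1 to 3 (KO PBS), 10 to 12 (WT ethanol) and 7 to 9 (WT PBS). The labels give no strain and no detail of the knockout allele.

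Mammals oxidise ethanol in steps. Alcohol dehydrogenases turn ethanol into acetaldehyde, a reactive aldehyde that binds proteins and DNA, and the microsomal enzyme CYP2E1 and peroxisomal catalase can carry out the same step. Aldehyde dehydrogenases, above all mitochondrial ALDH2, turn acetaldehyde into acetate. Most of this happens in liver, which releases acetate to the blood, and other tissues join the acetate to coenzyme A through acetyl-CoA synthetases, in mitochondria (ACSS1) or in cytosol and nucleus (ACSS2), for fuel, lipid synthesis and histone acetylation. The comparisons ask what binge ethanol and catalase loss did to the transcripts of these enzymes in bone.

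Library totals ranged from 19950222 to 28789308 counts. CPM below means counts scaled by library total and TMM factor. Cat, the targeted gene, ranged over 69.1 to 74.2 CPM in KO ethanol libraries, 66.0 to 70.1 CPM in KO PBS libraries, 144 to 172 CPM in WT ethanol libraries and 128 to 175 CPM in WT PBS libraries, so every KO library lay below every WT library while still holding Cat reads. The shafts held bone cell RNA, with all 6 osteoblast and all 6 osteocyte markers counted in every library, and also RNA of blood and muscle cells. The WT libraries 12 (ethanol), 8 and 9 (PBS) stood apart: 12 skeletal muscle markers made up 3.31% of counts in library 12, 2.77% in library 8 and 3.12% in library 9, against 0.121 to 1.74% in the other 9. Mitochondrially encoded genes took 5.04, 6.40 and 5.33% of counts in libraries 12, 8 and 9, against 2.20 to 2.94% in the others. Hepatocyte RNA was near the limit of counting, with 5 to 21 reads of Alb per library and Serpina1a at 0 reads in 11 of 12 libraries. In bulk tissue, fewer cells of a type and less RNA per cell cannot be told apart.

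Promoter stretches of the alcohol dehydrogenase genes are shown as a description. Any link between their composition and the expression of these genes was not tested. The stretches below come from RefSeq's promoter entries on GRCm38.p6 and end where an exon annotated by GENCODE begins. Capitals mark the GC box GGGCGG, or CCGCCC on the other strand. Adh1 is at chr3:138277335-138277493 (plus strand, 159 bases) and holds 2 CpG and no GC box (5 CpG in its full window of 250 bases). It lies before the start of the protein-coding transcripts but inside the span of the gene, because 1 of 4 annotated transcripts starts further upstream. One of 2 Adh5 entries is at chr3:138442843-138443092 (plus strand, 250 bases) and holds 21 CpG and 3 GC boxes. The other Adh5 entry, not shown, is at chr3:138436950-138437199 (250 bases) and, like the Adh1 stretch, holds 2 CpG and no GC box.
Adh1: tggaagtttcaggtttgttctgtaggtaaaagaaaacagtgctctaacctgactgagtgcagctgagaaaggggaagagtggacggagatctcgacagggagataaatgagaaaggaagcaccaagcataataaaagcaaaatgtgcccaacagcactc
Adh5: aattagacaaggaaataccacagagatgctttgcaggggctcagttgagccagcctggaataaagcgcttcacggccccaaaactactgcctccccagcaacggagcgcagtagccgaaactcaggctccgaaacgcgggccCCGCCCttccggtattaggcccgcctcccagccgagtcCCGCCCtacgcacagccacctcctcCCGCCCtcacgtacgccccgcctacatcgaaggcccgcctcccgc
The median promoter window of 250 bases held 6 CpG. Of 32851 such windows over all genes, 32.7% held a GC box, 33.8% the CCAAT box CCAAT, 12.4% the TATA box TATAAA, 14% the nuclear receptor hexamer AGGTCA, 6.02% the E-box CACGTG and 6.68% the sterol element core CACCCCA, each searched on both strands. Promoter entries were matched for 8 of the 10 genes, all but Aldh2 and Acss3. Of those 8, 5 held a GC box (Adh5, Aldh1b1, Aldh3a2, Acss1 and Acss2), 4 a CCAAT box (Aldh1a1, Aldh3a2, Aldh9a1 and Acss2) and 1 each a TATA box (Adh5, in its other entry) and an E-box (Aldh3a2). No AGGTCA and no sterol element core was found in these windows. A gene was counted if any of its windows held the motif, so the counts of genes and the shares of windows are not like for like.

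All 10 are protein-coding genes, placed here on GRCm38. Adh1 (138260991 to 138290698) and Adh5 (138443093 to 138455499) lie close together on the plus strand of chromosome 3. Aldh2 lies on chromosome 5 (121566027 to 121593824, minus), Aldh1a1 on chromosome 19 (20492715 to 20643465, plus), Aldh1b1 on chromosome 4 (45799022 to 45804604, plus), Aldh3a2 on chromosome 11 (61223417 to 61267464, minus) and Aldh9a1 on chromosome 1 (167349991 to 167368532, plus). Acss1 (minus strand) and Acss2 (plus strand) lie on chromosome 2, and Acss3 lies on chromosome 10.

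Per kilobase of annotated exon, Aldh2 was by far the most abundant of the 10, at 117 ± 11.5 CPM per kb (SD over 12 libraries), which placed it at percentile 98.2 of all genes tested. Next came Aldh9a1 at 24.2 ± 1.43 CPM per kb, whose product also oxidises aminoaldehydes on the way to carnitine, Acss1 at 16.4 ± 2.52 and Aldh1a1 at 16.01 ± 2.80, the cytosolic retinaldehyde dehydrogenase that also takes acetaldehyde. Aldh3a2, the fatty aldehyde dehydrogenase, stood at 11.2 ± 0.988 CPM per kb and Adh5, the glutathione-dependent formaldehyde dehydrogenase, at 9.88 ± 0.674. Below these lay Aldh1b1, a mitochondrial acetaldehyde oxidiser, at 4.24 ± 0.562 CPM per kb, Adh1, the classical ethanol-oxidising enzyme of liver, at 3.05 ± 1.26, Acss2 at 2.29 ± 0.220 and Acss3 at 0.461 ± 0.167. The ranges over the libraries did not overlap between Aldh2 and Aldh9a1, Aldh9a1 and Acss1, Adh5 and Aldh1b1, or Acss2 and Acss3, and the other neighbours in the order overlapped. With the longest transcript in place of all exons only 4 of the 10 kept their place (Aldh2, Adh5, Adh1 and Acss3), and Aldh1a1 moved to place 2.

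**Figure D1:**
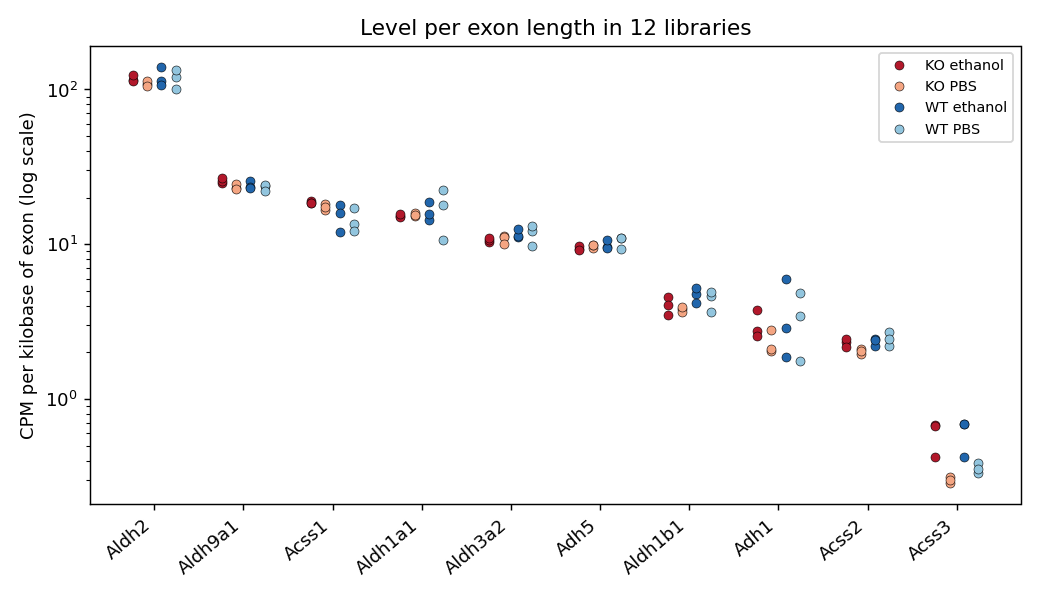
Level of each gene in CPM per kilobase of exon (log scale), 1 point per library coloured by group. Aldh2 (101 to 140 CPM per kb) lies above all the others and Acss3 (0.286 to 0.688) below all the others.

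The plot of levels per kilobase also shows how unevenly the genes varied. The coefficient of variation of CPM over the 12 libraries was 41.3% for Adh1 and 36.2% for Acss3, at percentiles 90.2 and 86.9 of all genes tested. It was 6.83% for Adh5 and 5.91% for Aldh9a1, at percentiles 16.8 and 11.2. These values span the 4 groups, so that of Acss3 includes its difference between ethanol and PBS libraries. Within groups, Acss3 had 24.5% (KO ethanol), 4.55% (KO PBS), 25.4% (WT ethanol) and 7.65% (WT PBS). Adh1 differed 3.35-fold between its highest and lowest library and Aldh9a1 1.22-fold.

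Of the 10 genes, 1 passed the test for ethanol averaged over the genotypes, Acss3, against 10.8% of all genes tested (5.02% higher), so that 1 in 10 is near the background. ACSS3 is a mitochondrial member of the acetyl-CoA synthetase family that prefers propionate, and its gene lies on chromosome 10 (GRCm38 106933517 to 107123668, minus strand). In KO mice, Acss3 stood at 3.04, 4.87 and 4.78 CPM in the ethanol libraries, against 2.06, 2.26 and 2.15 CPM in the PBS libraries. In WT mice it stood at 3.04, 4.93 and 4.95 CPM in the ethanol libraries, against 2.78, 2.39 and 2.55 CPM in the PBS libraries. Every ethanol library lay above every PBS library in both genotypes, as was the case for 2.9% of all genes over the 6 ethanol and 6 PBS libraries, and 1 ethanol library of each genotype (4 and 10) lay closer to the PBS libraries than the other two. These levels rest on 66 to 131 counts in the ethanol libraries and 48 to 69 in the PBS libraries.

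Averaged over the genotypes, Acss3 rose 1.81-fold with ethanol (95% confidence interval 1.42 to 2.30; log2 fold change 0.86, SE 0.16; edgeR quasi-likelihood test, adjusted p = 0.00719). The effect in KO mice was 1.96-fold (log2 fold change 0.97, SE 0.22, adjusted p = 0.0513) and in WT mice 1.67-fold (log2 fold change 0.74, SE 0.22, adjusted p = 0.132), and neither passed the threshold of 0.05 by itself. The difference between the effects was 0.23 on the log2 scale (95% confidence interval -0.46 to 0.91, adjusted p = 1). In KO mice the call was gained when library 4, 10 or 12 was left out (log2 fold changes 1.16, 0.97 and 0.96; adjusted p = 0.0353, 0.029 and 0.0447) and with DESeq2 (0.97, adjusted p = 0.00704). The averaged call was lost without libraries 8, 9 and 12 together (0.75, adjusted p = 0.0514).

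In KO mice 0 of the 10 were called for ethanol with edgeR, against 1.87% of all genes tested. In WT mice 0 of the 10 were called, against 1.26%. At an unadjusted p under 0.05 the counts were 2 in KO (16.4% of all genes), 1 in WT (16%) and 2 averaged (26.2%). DESeq2 called 1 of the 10 in KO, 0 in WT and 1 averaged, while limma-voom, and limma-trend run on the normalized signal, each called 0, 0 and 1. The plot of fold changes shows the 10 genes side by side. The ethanol groups did not overlap and were higher for 5 of 10 in KO mice (16.3% of all genes; Aldh2, Aldh9a1, Acss1, Acss2 and Acss3), for 1 of 10, Acss3, in WT mice (7.32%) and, as above, for Acss3 over the 6 ethanol against the 6 PBS libraries. The median log2 fold change of the 10 was 0.10 in KO, 0.04 in WT and 0.08 averaged, against 0, -0.02 and -0.01 over all genes.

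**Figure D2:**
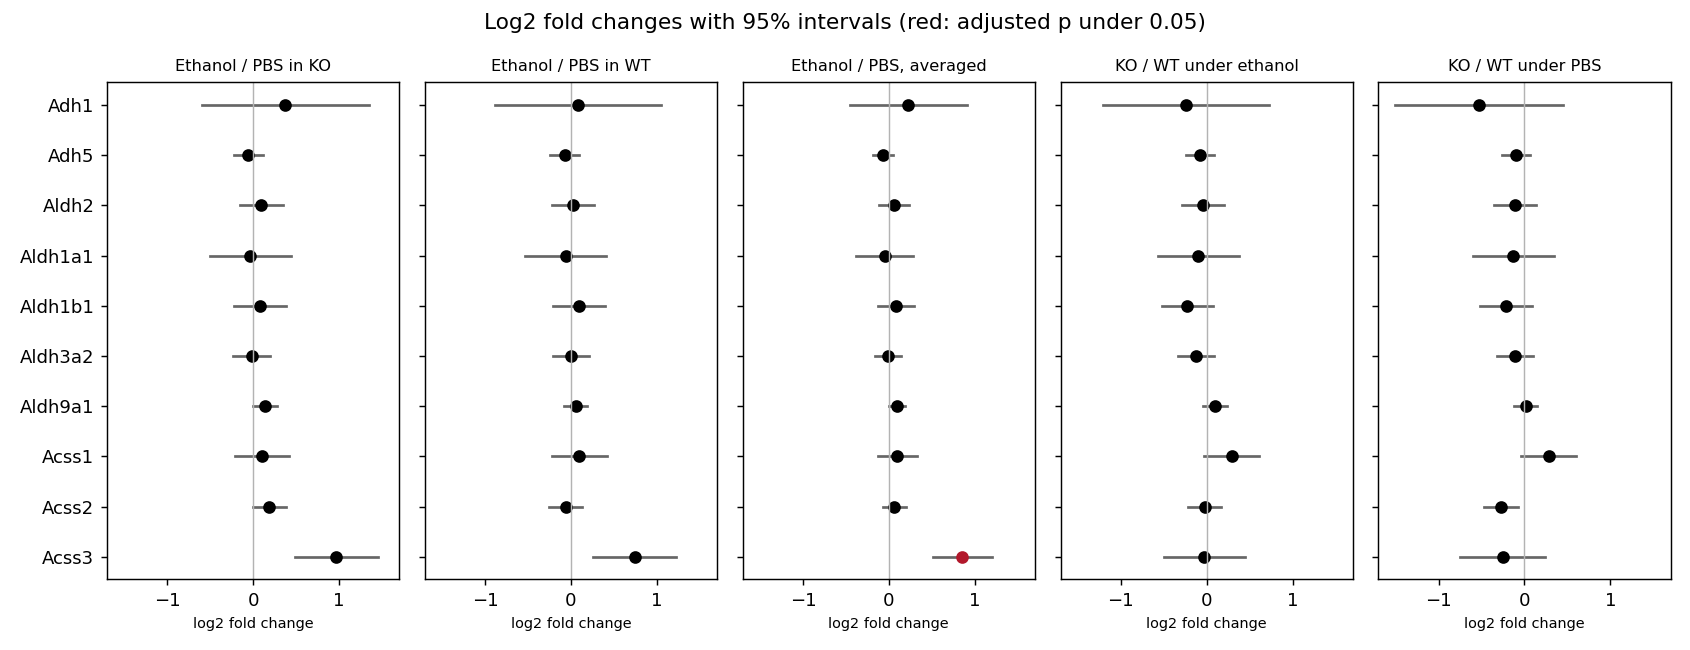
Log2 fold change of each of the 10 genes with its 95% confidence interval from the edgeR fit, in 5 panels: ethanol against PBS in KO, in WT and averaged, and KO against WT under ethanol and under PBS (red point: adjusted p under 0.05). Acss3 averaged over the genotypes (interval 0.51 to 1.20) is the single red point, and the intervals of Adh1 are the widest.

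Part of the exon sequence of Acss3 is shared with a second gene. Ppfia2, which encodes the scaffold protein liprin-alpha-2, lies tail to tail with Acss3 on the other strand, and the annotated exons of the pair share 2436 bases (chr10:106933517-106935952), 33.9% of the exon bases of Acss3. The shared stretch is untranslated in both genes and belongs to 1 of 3 Acss3 transcripts and 1 of 4 Ppfia2 transcripts. The sources used here do not say whether counting used strand, and without strand reads from that stretch cannot be told apart. Ppfia2 moved the other way. It stood at 8.87, 9.20 and 5.18 CPM in KO ethanol libraries against 16.2, 15.9 and 15.9 CPM in KO PBS libraries, and at 11.6, 9.02 and 6.53 CPM in WT ethanol libraries against 14.9, 13.2 and 14.0 CPM in WT PBS libraries. Its averaged log2 fold change was -0.84 (SE 0.16, adjusted p = 0.0076), that in KO mice was -1.05 (SE 0.22, adjusted p = 0.0371), and that in WT mice was -0.63 (SE 0.22, adjusted p = 0.188), which did not pass.

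**Figure D3:**
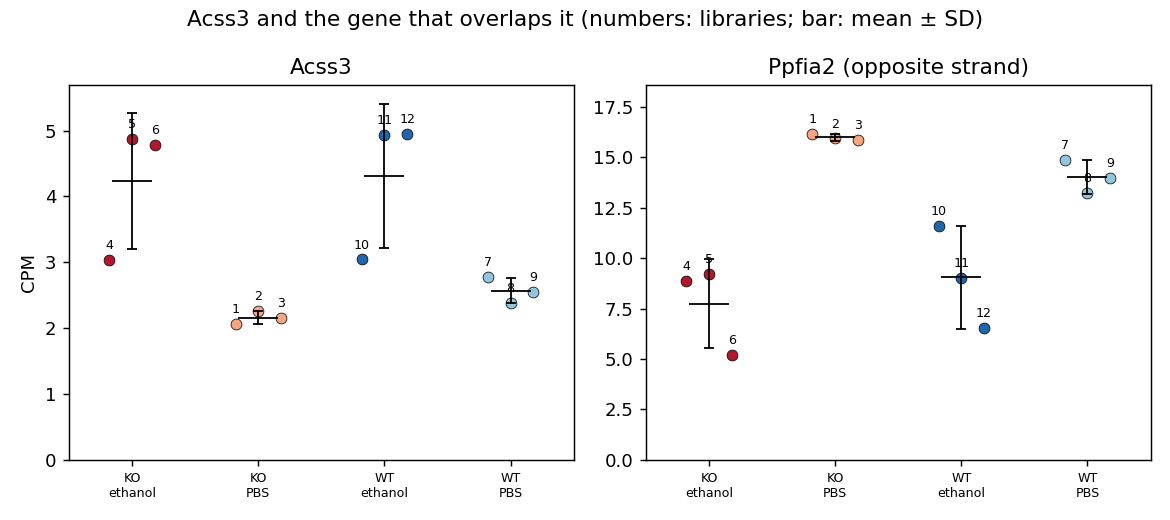
CPM of Acss3 (left) and Ppfia2 (right) in each library, groups from left to right KO ethanol, KO PBS, WT ethanol and WT PBS, with the mean ± SD of 3 libraries. The 6 ethanol libraries are higher for Acss3 (3.04 to 4.95 CPM against 2.06 to 2.78 CPM with PBS) and lower for Ppfia2 (5.18 to 11.6 CPM against 13.2 to 16.2 CPM with PBS).

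Markers of skeletal cells are given beside this result, with none of them at 0 in any library. The 6 osteoblast markers summed to 0.603 to 1.31% of counts in KO ethanol libraries and 1.87 to 2.18% in KO PBS libraries, and to 0.574 to 1.21% in WT ethanol libraries and 1.18 to 1.45% in WT PBS libraries. The KO groups did not overlap and the WT groups did. Col1a1 made up most of these sums, at a median of 10980 CPM against at most 669 CPM for any other osteoblast marker. As a description over 12 libraries that share these groups, Pearson's r was taken between Acss3 and the mean of each list. It was -0.81 (-0.78 without libraries 8, 9 and 12) for the osteoblast list and -0.74 (-0.73) for the chondrocyte list. The osteocyte list gave a weaker -0.35 (-0.43), and the osteoclast list went the other way at 0.51 (0.39). The part of cell content in the Acss3 difference was not tested.

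The other acetyl-CoA synthetases did not pass the test with ethanol. Acss2, the cytosolic and nuclear enzyme, stood at 23.6, 25.0 and 22.01 CPM in KO ethanol libraries against 21.3, 19.8 and 20.8 CPM in KO PBS libraries, with every ethanol library above every PBS library. In WT mice it stood at 24.9, 22.4 and 24.4 CPM with ethanol against 22.3, 27.7 and 24.9 CPM with PBS, and the groups overlapped. The log2 fold change was 0.19 in KO mice (95% confidence interval -0.004 to 0.38, adjusted p = 0.317) and -0.06 in WT mice (-0.26 to 0.13, adjusted p = 0.792). Their difference was 0.25 (-0.02 to 0.52, unadjusted p = 0.0691, adjusted p = 1). Acss2 shares 9.12% of its exon bases with genes on the opposite strand (Gss, Acss2os and Ggt7). As for Acss3, the sources used here do not say whether counting used strand.

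Acss1, the mitochondrial enzyme, stood at 78.5, 76.2 and 76.5 CPM in KO ethanol libraries against 74.9, 68.3 and 71.9 CPM in KO PBS libraries, and the groups did not overlap. WT libraries spanned a wider range that overlapped these, at 74.4, 65.4 and 49.3 CPM with ethanol against 55.8, 50.02 and 70.9 CPM with PBS. The averaged ethanol effect was 0.10 on the log2 scale (95% confidence interval -0.12 to 0.33, adjusted p = 0.596). Without libraries 8, 9 and 12 it was 0.22 (adjusted p = 0.023), a call in which library 7 alone stood for WT PBS.

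The 5 aldehyde dehydrogenases gave no call with ethanol in either genotype or averaged. Aldh2 stood at 586, 585 and 633 CPM in KO ethanol libraries against 559, 584 and 543 CPM in KO PBS libraries, and at 585, 550 and 719 CPM in WT ethanol libraries against 621, 687 and 516 CPM in WT PBS libraries. The KO groups did not overlap and the WT groups did. The averaged effect on Aldh2 was 0.06 on the log2 scale, with a 95% confidence interval of -0.11 to 0.24 (adjusted p = 0.695). Aldh9a1 stood at 84.7, 87.3 and 90.2 CPM in KO ethanol libraries against 78.2, 83.3 and 76.4 CPM in KO PBS libraries, which did not overlap. In WT mice it stood at 87.0, 79.5 and 78.5 CPM with ethanol against 79.8, 81.7 and 74.2 CPM with PBS. Its averaged effect was 0.10 (95% confidence interval 0.002 to 0.19, unadjusted p = 0.0456, adjusted p = 0.18).

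Aldh1a1 varied more among WT than among KO libraries. Its CPM was 74.8, 73.4 and 76.8 in KO ethanol libraries against 75.6, 78.2 and 76.5 in KO PBS libraries, a narrow span. In WT libraries it was 71.1, 77.1 and 93.0 with ethanol against 52.7, 88.6 and 111 with PBS, and the highest values were those of libraries 12, 8 and 9. Its averaged ethanol effect was -0.05 on the log2 scale (95% confidence interval -0.38 to 0.29, adjusted p = 0.88). Leaving out libraries 8, 9 and 12 turned the direction, to 0.24 averaged and 0.51 in WT mice. That fit had library 7 as the single WT PBS library, at 52.7 CPM the lowest library of all for Aldh1a1. The cause of the spread was not tested. Aldh1a1 shares an identical run of 100 bases with Aldh1a7, a near copy, so reads there cannot be assigned to either for certain. Aldh1a7 stood at 5.003 to 12.4 CPM with an averaged ethanol effect of 0.02 (adjusted p = 0.961).

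The remaining aldehyde dehydrogenases had coefficients of variation of 13.3% (Aldh1b1) and 8.84% (Aldh3a2) over the 12 libraries. Aldh1b1 averaged 9.26 ± 1.27 CPM in KO ethanol libraries and 8.75 ± 0.384 CPM in KO PBS libraries, and 10.8 ± 1.14 CPM in WT ethanol libraries and 10.1 ± 1.52 CPM in WT PBS libraries (SD, n = 3 each). Aldh3a2 averaged 59.9 ± 1.54 CPM in KO ethanol libraries and 60.6 ± 3.97 CPM in KO PBS libraries, and 65.3 ± 4.18 CPM in WT ethanol libraries and 65.4 ± 9.73 CPM in WT PBS libraries. The averaged log2 effects were 0.09 for Aldh1b1 (95% confidence interval -0.13 to 0.30) and -0.01 for Aldh3a2 (-0.16 to 0.14).

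Neither alcohol dehydrogenase gave a call with ethanol. Adh5 averaged 50.8 ± 1.93 CPM in KO ethanol libraries and 52.8 ± 1.41 CPM in KO PBS libraries, and 53.6 ± 3.85 CPM in WT ethanol libraries and 56.4 ± 5.33 CPM in WT PBS libraries (SD, n = 3 each). The averaged effect on Adh5 was -0.06 on the log2 scale, within a 95% confidence interval of -0.18 to 0.05 (adjusted p = 0.506). Adh1 stood at 6.11, 8.36 and 5.66 CPM in KO ethanol libraries against 4.56, 6.22 and 4.71 CPM in KO PBS libraries. In WT mice it stood at 4.20, 6.39 and 13.2 CPM with ethanol against 3.95, 7.66 and 10.8 CPM with PBS, highest in libraries 12 and 9, and the groups overlapped in both genotypes. As the plot by library shows, its spread was widest in WT mice. Its averaged effect was 0.23, with a wide 95% confidence interval of -0.46 to 0.92 (adjusted p = 0.703). Changes in either direction within that interval remained compatible with the data. Without library 12 the averaged value was -0.06 (adjusted p = 0.905) and without library 9 it was 0.42 (adjusted p = 0.477).

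**Figure D4:**
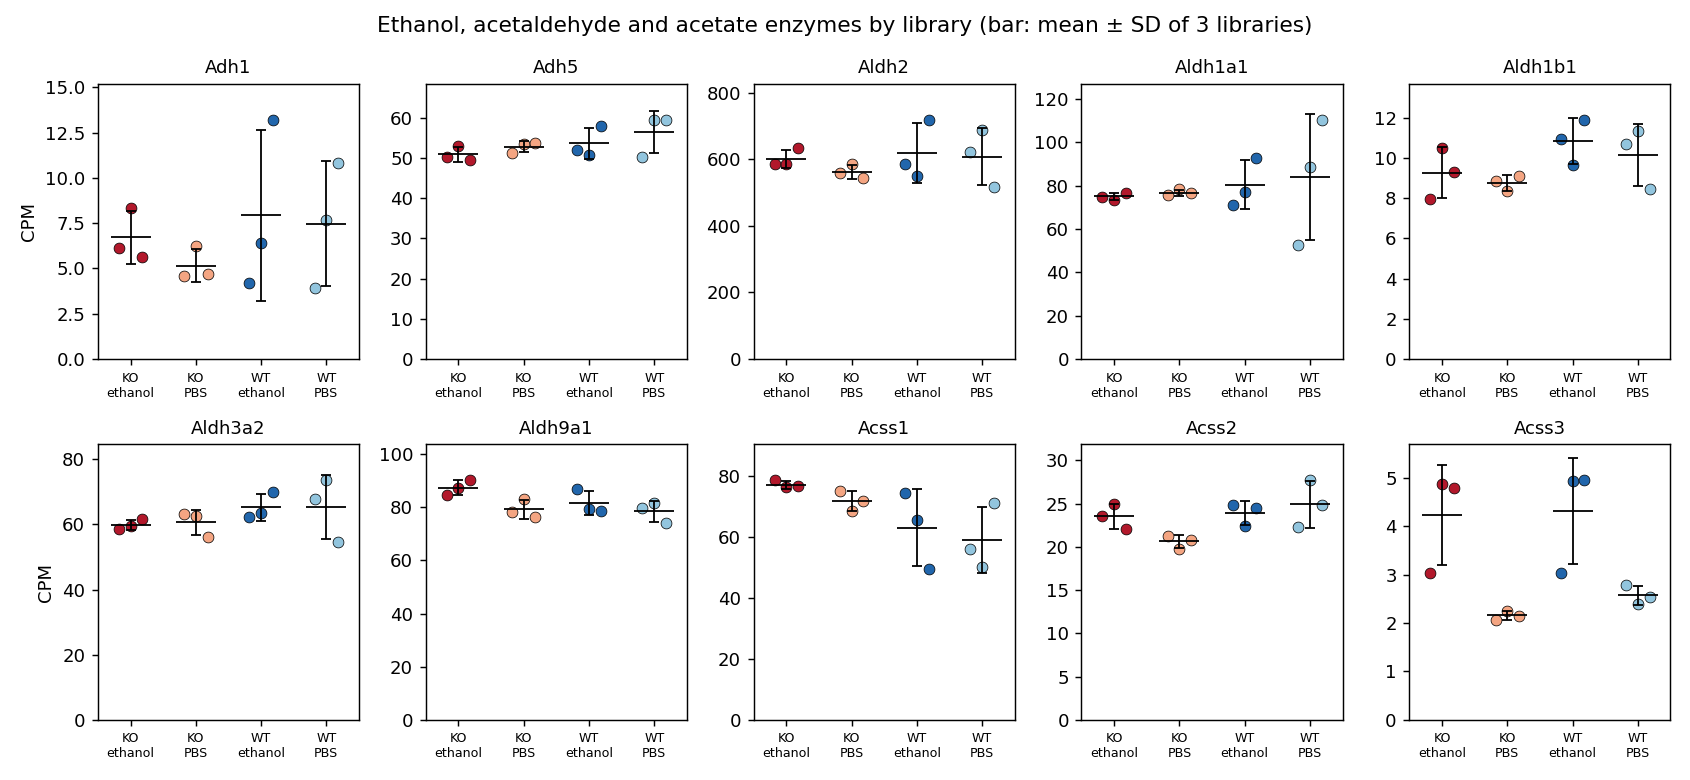
CPM of each of the 10 genes in each library (1 panel per gene) with the mean ± SD of 3 libraries, groups from left to right KO ethanol, KO PBS, WT ethanol and WT PBS. Acss3 is higher in all 6 ethanol libraries (3.04 to 4.95 CPM) than in the 6 PBS libraries (2.06 to 2.78 CPM), and the WT points of Adh1, Aldh1a1 and Acss1 are spread more widely than the KO points.

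Catalase loss gave no call among the 10 genes. Under PBS and under ethanol, 0 of 10 passed with edgeR, DESeq2, limma-voom or limma-trend, against 0.011% of all genes tested in each comparison, and averaged over the gavages the count was again 0 of 10, against 0.011%. At an unadjusted p under 0.05 the counts were 1 under PBS, 0 under ethanol and 3 averaged, against 7.43, 5.78 and 14.3% of all genes. The median log2 fold change of the 10 was -0.06 under ethanol, -0.12 under PBS and -0.12 averaged, against 0.00, -0.01 and 0.00 over all genes. The groups did not overlap for 2 of 10 under PBS, both lower in KO (Acss2 and Acss3; 5.16% of all genes were lower in this way). Under ethanol they did not overlap for 1 of 10 higher in KO (Acss1; 7.12% of all genes) and 1 lower (Aldh3a2; 4.04%). The 3 genes with an unadjusted p under 0.05 in the averaged comparison were Acss1, Acss2 and Aldh1b1.

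Acss1 averaged 77.1 ± 1.26 CPM in KO ethanol libraries against 63.0 ± 12.7 CPM in WT ethanol libraries, and 71.7 ± 3.27 CPM in KO PBS libraries against 58.9 ± 10.8 CPM in WT PBS libraries (SD, n = 3 each). Its averaged knockout effect was 0.29 on the log2 scale (95% confidence interval 0.06 to 0.51, adjusted p = 0.336). The 7 erythroid markers, haemoglobin genes among them, summed to 1.57 to 1.74% of counts in KO ethanol libraries against 0.852 to 1.69% in WT ethanol libraries, and to 1.48 to 1.72% in KO PBS libraries against 0.897 to 1.32% in WT PBS libraries. Over the 12 libraries Pearson's r between Acss1 and that list was 0.96 (0.93 without libraries 8, 9 and 12). The macrophage list followed Acss1 nearly as closely, at 0.90 (0.86). Other lists gave 0.76 (0.32) for B cells, 0.75 (0.16) for marrow stroma and -0.79 (-0.30) for neutrophils. These values describe libraries that share a scaling. The part of erythroid RNA, or of any other cell type, in the Acss1 difference was not tested. Acss2 under PBS averaged 20.6 ± 0.775 CPM in KO libraries and 24.9 ± 2.72 CPM in WT libraries, and these did not overlap (log2 fold change -0.27, SE 0.09, unadjusted p = 0.00958, adjusted p = 0.605). Under ethanol its difference between the genotypes was -0.02 (adjusted p = 0.963). The averaged effect on Aldh1b1 was -0.22 (SE 0.10, adjusted p = 0.346). Acss1 (150618105 to 150668500) and Acss2 (155517948 to 155585724) lie on chromosome 2, as Cat does, at 47.1 and 52.0 Mb from it.

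None of the 10 genes gave a call for a difference between the ethanol effects in KO and WT mice. The interaction called 0 of 10 with edgeR, DESeq2, limma-voom and limma-trend, with 0 of 10 at an unadjusted p under 0.05, against 0% of all genes called and 1.98% at the unadjusted level. The intervals stayed wide for Adh1 (0.29, 95% confidence interval -1.08 to 1.66 on the log2 scale) and were narrowest for Aldh9a1 (0.08, -0.11 to 0.27).

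Several of the 10 correlated with lists of cell type markers over the libraries. Over 12 libraries, Pearson's r of Aldh2 with the mean of 8 neutrophil markers was 0.93 (0.70 without libraries 8, 9 and 12). With the same list, r was 0.86 (0.49) for Aldh3a2 and 0.80 (0.57) for Aldh1b1. Aldh3a2 also gave a negative r with the erythroid list, at -0.77 (-0.80). Adh1 followed the skeletal muscle list (0.86; 0.71 without those libraries), the adipocyte list (0.84; 0.71) and the periosteal and fibroblast list (0.76; 0.73). Aldh1a1 followed the adipocyte list (0.79; 0.76) and the muscle list (0.76; 0.42), and Adh5 followed the muscle list (0.81), but at 0.22 without the 3 libraries. These are descriptions over libraries that share groups and depth. Apart from the erythroid value of Aldh3a2, the lists named are those with the highest positive r for each gene. Other negative values are not given here, and cell content itself was not measured.

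**Figure D5:**
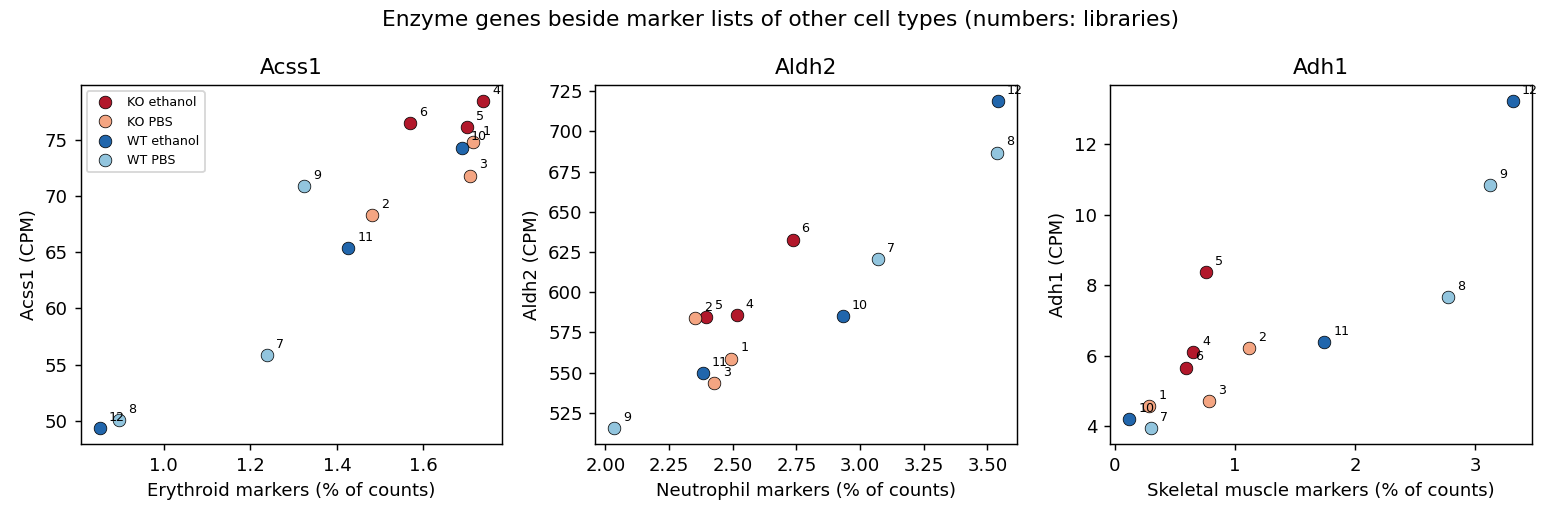
CPM of Acss1, Aldh2 and Adh1 (vertical axes) against the share of counts, in %, taken by the erythroid, neutrophil and skeletal muscle marker lists (horizontal axes), 1 numbered point per library coloured by group. Acss1 is lowest in libraries 12 and 8, where the erythroid share is 0.852 and 0.897%, Aldh2 is highest in the same libraries, where the neutrophil share is 3.54% in each, and Adh1 is highest in libraries 12 and 9.

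The 2 genes whose log2 CPM pattern over the 12 libraries was most like each of the 10, among 18098 genes with a unique symbol, were as follows. Acss3 was nearest to Wbp1l (r = 0.955) and Crispld2 (0.917), Acss2 to Flvcr1 (0.936) and Suds3 (0.888), and Acss1 to Ormdl3 (0.976) and Cpox (0.976), the last an enzyme of haem synthesis. Aldh2 was nearest to Rasl11b (0.968) and Arrb2 (0.962), Aldh3a2 to Irak3 (0.962) and Cybb (0.953), the catalytic subunit of the phagocyte NADPH oxidase, and Aldh1a1 to Nfs1 (0.945) and Tarsl2 (0.943). Aldh9a1 was nearest to Ints9 (0.922) and Gm43305 (0.912), and Aldh1b1 to Gm26642 (0.926) and Rab31 (0.922). Adh5 was nearest to Ndufa11 (0.969) and Cox6c (0.967), both of the respiratory chain, and Adh1 to Snhg14 (0.962) and Mn1 (0.958). Without libraries 8, 9 and 12, the r of Adh5 was 0.821 with Ndufa11 and 0.793 with Cox6c. In the same libraries it was 0.942 for Acss1 with Cpox and 0.863 for Aldh3a2 with Cybb.

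Of 34 other genes of alcohol, aldehyde and acetate handling, 31 were tested. The liver alcohol dehydrogenase gene Adh4 had at most 1 count, Adh6a none and Aldh8a1 at most 5 counts in any library. For ethanol averaged over the genotypes, edgeR called 2 higher and 3 lower of 31, against 5.02 and 5.81% of all genes. Aldh1l2, the mitochondrial folate-linked enzyme, fell by 1.21 in log2 units (adjusted p = 0.0064, SE 0.21), at 4.19 ± 1.64 CPM in KO ethanol libraries against 11.5 ± 1.64 CPM in KO PBS libraries and 5.07 ± 0.295 CPM in WT ethanol libraries against 9.91 ± 3.42 CPM in WT PBS libraries (SD, n = 3 each). Aldh1a2, a retinaldehyde dehydrogenase, fell by 0.83 (SE 0.19, adjusted p = 0.0171) and Aldh16a1 by 0.26 (SE 0.05, adjusted p = 0.00844). Adh7, the class IV alcohol and retinol dehydrogenase, rose by 0.87 (SE 0.23, adjusted p = 0.0353) on 16 to 36 counts in ethanol libraries and 8 to 19 in PBS libraries, and Aldh3a1 rose by 0.61 (SE 0.15, adjusted p = 0.0266).

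Within the genotypes the list gave fewer calls. In KO mice edgeR called 1 of 31, Aldh1l2 (log2 fold change -1.45, adjusted p = 0.0369), and DESeq2 called 3, limma-voom 2 and limma-trend 1, all lower. In WT mice edgeR called 0 of 31, with 6 at an unadjusted p under 0.05, and DESeq2 called 1, limma-voom 0 and limma-trend 0. The smallest p in WT mice belonged to Aldh1l2 (-0.96, adjusted p = 0.143), Aldh16a1 (-0.22, adjusted p = 0.151) and Slc16a7, a monocarboxylate transporter (0.25, adjusted p = 0.232). Between KO and WT mice Cat was the single call of the list, at log2 fold changes of -1.16 under ethanol (adjusted p = 0.00102) and -1.17 under PBS (adjusted p = 0.00202). The interaction called 0 of 31 with each of the 4 tools and 0 at an unadjusted p under 0.05, and its smallest p belonged to Aldh1l1 (0.46), Aldh1l2 (-0.49) and Aldh18a1 (0.27), each at an adjusted p of 1.

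Acss2 is known as a target of the sterol-regulated SREBP factors, so the genes of sterol and fatty acid synthesis were set beside it. Of 24 tested from a list of 25, edgeR called 13 lower with ethanol averaged over the genotypes and 0 higher (5.81% of all genes tested were lower), 3 lower in KO mice (Hmgcs1, Cyp51 and Insig1; 0.903% of all genes) and 9 lower in WT mice (0.705%). DESeq2 called 9 lower in KO and 13 in WT, limma-voom 5 and 8, and limma-trend 3 and 8, with 13 averaged for each of these tools. Their median log2 fold change was -0.31 averaged, -0.24 in KO and -0.36 in WT. The values for Acss2 were 0.06 averaged (adjusted p = 0.578), 0.19 in KO and -0.06 in WT. The promoter stretch of Acss2 before its first annotated exon is shown for this comparison, at chr2:155517793-155517947 (plus strand, 155 bases), with 3 GC boxes in capitals and 6 CpG.
Acss2: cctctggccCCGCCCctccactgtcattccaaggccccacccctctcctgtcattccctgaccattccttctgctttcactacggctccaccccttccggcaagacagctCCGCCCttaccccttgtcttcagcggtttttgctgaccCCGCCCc
Of 17 genes of the sterol list with a promoter entry, 16 held a CCAAT box, 14 a GC box and 2 the sterol element core within 250 bases before the start. The full Acss2 window of 250 bases held GC boxes, a CCAAT box and no sterol element core. That CCAAT box lies beyond the stretch shown, past the start of the first annotated exon. With that core in only 2 of the 17, its absence does not set Acss2 apart from the list.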

How the data were processed

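The authors deposited raw counts per Ensembl gene for 49315 genes and, per the file headers, a normalized table of 17408 genes. Tested on the values, that second deposited table is a signal, each count over a fixed factor of its library (relative spread at most 9.88e-10), for genes with a mean count above 10. Per the submitters' processing notes, the tools were STAR 2.5.2b, Trimmomatic 0.36, Subread 1.5.2 and featureCounts, on GRCm38. No annotation release, strand setting or rule for multimapping reads is stated (not given in the sources used here).

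Low counts were removed by filterByExpr (at least 10 counts, total at least 15), and the rest were scaled by TMM factors and fitted with edgeR 4.0.16 (quasi-likelihood, robust, R 4.3.3) with 1 coefficient per group and 8 residual degrees of freedom. The normalized signal served 1 alternative. Benjamini-Hochberg adjustment ran over all 18161 genes tested, and calls needed an adjusted p under 0.05. The SE is the log2 fold change divided by the square root of F. P-values measure the spread between pools of 2 mice, and no date or batch is labelled. Positions, exon lengths and overlaps came from GENCODE M21 on GRCm38. DESeq2 1.42.0, limma 3.58.1, other factors, filters and left-out libraries were alternatives. The script was tested on simulated data. The 10 genes and all lists were chosen with earlier results of these data known. All 10 are named, with the called genes of the other enzyme list (otherwise its 3 smallest p) and the 2 nearest patterns of each gene.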

Additional observations from a re-analysis of the deposited data

How the results depend on the processing

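Acss3 averaged over the genotypes was called in 19 of 20 alternatives that gave it a value (log2 fold change 0.75 to 0.95, adjusted p = 0.00012 to 0.0514), and the exception was the fit without libraries 8, 9 and 12 (0.75, adjusted p = 0.0514). In KO mice it was called in 8 of 21 (0.86 to 1.16, adjusted p = 0.00704 to 0.185) and in WT mice in 0 of 21 (0.54 to 0.94, adjusted p = 0.0747 to 0.533). The count of the 10 genes called for ethanol in KO mice was 1 in place of 0 with no filter, with DESeq2, with the 2 groups alone, with a muscle covariate (the 12 markers) and without libraries 8, 9 and 12, and 0 to 1 when each library was left out in turn. In WT mice it was 1 without libraries 8, 9 and 12. Averaged, it was 0 with at least 5 CPM in 3 libraries, where Acss3 was not tested, and 2 without libraries 8, 9 and 12, where Aldh1a1 and Acss1 were called. Aldh1a1 changed sign there (0.51 in WT, 0.24 averaged), with the lone WT PBS library assumed to vary like the other groups; the cause was not tested. Averaged ethanol values that were not called also crossed 0 in some alternatives for Adh1 (-0.06 to 0.42), Aldh2 (-0.01 to 0.11) and Aldh3a2 (-0.07 to 0.04). The order of levels kept 4 of 10 places with the longest transcript. Over all genes, ethanol calls in KO mice were 339 (52 to 568 with 1 library left out, 311 to 1677 otherwise), in WT mice 229 (35 to 320; 4 to 731) and averaged 1967 (1040 to 2152; 1636 to 2756). Averaged knockout calls were 2 (2 to 3; 2 to 215). Knockout calls under ethanol were 2 (2 to 14 over the other settings), those under PBS 2 (2 to 3), and the interaction 0 (0 to 1). The fit of only the groups compared does not apply to contrasts over all 4 groups. Acss3 rests on 48 to 131 counts per library, which limits its precision. No paired analysis was possible because the replicate numbers run from 1 to 12 and no number is shared between groups.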
